A study of Mus musculus with 8 samples.

Results

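EBF1 binding was compared between a chromatin immunoprecipitation (ChIP-seq) library from cells given the solvent DMSO and another from cells given dTAG-13. All peaks of both deposited lists were taken, 312 from DMSO and 5 from dTAG-13. These 317 are part of the 5757 peaks of the series, the other 5440 being peaks of Brg1, the ATPase of a chromatin remodelling complex, from another line of genotype EBF1-dTAG_N. Both EBF1 libraries came from the same A-MuLV transformed pro-B line of genotype EBF1-dTAG_C, mouse early B-lineage cells kept in culture by the Abelson leukaemia virus. In this line an introduced, modified EBF1 replaces the endogenous protein, so the DMSO cells carry the tag as well. dTAG-13 was given at 0.5 µM for 6 h. The treatment label of the control gives 6 h of DMSO while its title gives 0 h, and the treatment label was followed. The antibody was a-EBF1 (1C). Each group had 1 library, so no difference between them has a replicate check and no p-value is given. The libraries come from 1 transformed line, and the level of EBF1 protein was not analysed here. In a ChIP of many cells, fewer cells with a bound site and less binding in each cell cannot be told apart.

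EBF1 (early B-cell factor 1) is a DNA-binding transcription factor that starts and maintains the B-cell programme together with E2A, Pax5 and Foxo1. It binds as a dimer to a palindrome and is known for activating genes of the pre-B cell receptor, the surface complex that tests a newly made immunoglobulin heavy chain. The dTAG system fuses a protein to a mutant FKBP12 domain. dTAG-13 bridges this domain to the ubiquitin ligase cereblon, and the fused protein is then degraded by the proteasome.

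The sequences under the peaks show what the antibody recovered at promoters. Sequence came from the RefSeq promoter windows of GRCm38.p6, which run from 250 bp before to 50 bp after a gene start, and 13 DMSO summits lie inside such a window. The motif searched was the EBF1 palindrome, TCCC and GGGA with 2 bases of any kind (N) between them, which reads the same on both strands. The 4 sites that had a peak in both libraries and lie in a window are shown first, written 5′ to 3′ on the gene's strand, with the 10-base stretch that best matches the motif within 30 bp of the summit in capitals.
Hdlbp, chr1:93478343-93478372, minus strand: gtggtgcctgTCCCTGGGGAcgtggccttc
Mphosph8, chr14:56668141-56668170, plus strand: tcccgtgaacTCCCCAGGGAgccggggagc
Pold4, chr19:4231674-4231703, plus strand: tctctatatgTCCCAAGGGAcccaagtgga
Rtca, chr3:116508146-116508175, minus strand: gccggcagggTCCCCTGGGGaattcgtttc

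Hdlbp, Mphosph8 and Pold4 match the motif exactly, and Rtca matches it with 1 mismatch. All 4 matches are centred within 11.5 bp of the DMSO summit. The next 6 promoter sites had a peak in DMSO and none after dTAG-13, and they are shown in the same way to set beside the first 4.
Hip1r, chr5:123973399-123973428, plus strand: ggatggggcgTCCCCGGGGActggaagggt
Ppm1a, chr12:72761016-72761045, plus strand: acgtccacgcTCCCTAGGGAtcggcccgcg
Acp6, chr3:97158657-97158686, plus strand: ggaactgcccTCCCTGGGGAcctcggccgc
Trim25, chr11:88999333-88999362, plus strand: cactgtccggCCCCCAGGGAcccacgtgac
Niban3, chr8:71597553-71597582, plus strand: tccctgggtcTCCCCTGGGGctgtccccac
Rhof, chr5:123132606-123132635, minus strand: ggggtgcactGCGCTTGCGGttcagcatcc

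Hip1r, Ppm1a and Acp6 hold the exact motif, at 3.5, 1.5 and 14.5 bp from the summit. Trim25 and Niban3 match with 1 mismatch, and the 10 bases at Niban3 are the same letters as those at Rtca. Rhof has no match within 30 bp with fewer than 4 mismatches. The exact motif was therefore read at sites of both kinds, at 3 of the 4 sites with a dTAG-13 peak and at 3 of the 9 without one. With 1 mismatch allowed these counts were 4 of 4 and 7 of 9.

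Over the 13 summits, 6 had the exact motif within 100 bp (46.2%, 95% interval 19.2 to 74.9%), and the same 6 had it within 30 bp. Among all 32851 promoter windows searched at the same distances, 0.475% held it, and 0.904% (297) held it at any position. With up to 1 mismatch the count was 11 of 13 (84.6%), against 9.05% of all promoters. The inner 8 bases alone, CCCNNGGG, which every exact match also holds, were found at 10 of 13 (76.9%) against 7.63%. The mismatch allowance and the 30 bp distance were chosen after the data had been seen. Windows end 50 bp into the gene, so part of the distance searched is cut off at some summits, in these sites and in the comparison alike. The 11 summits with a match of up to 1 mismatch had 17 to 52 fragments (median 28) and the other 2, Rhof and the window of Gm51752 whose peak was assigned to Rcsd1, had 23 and 17. These ranges overlap.

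**Figure D1:**
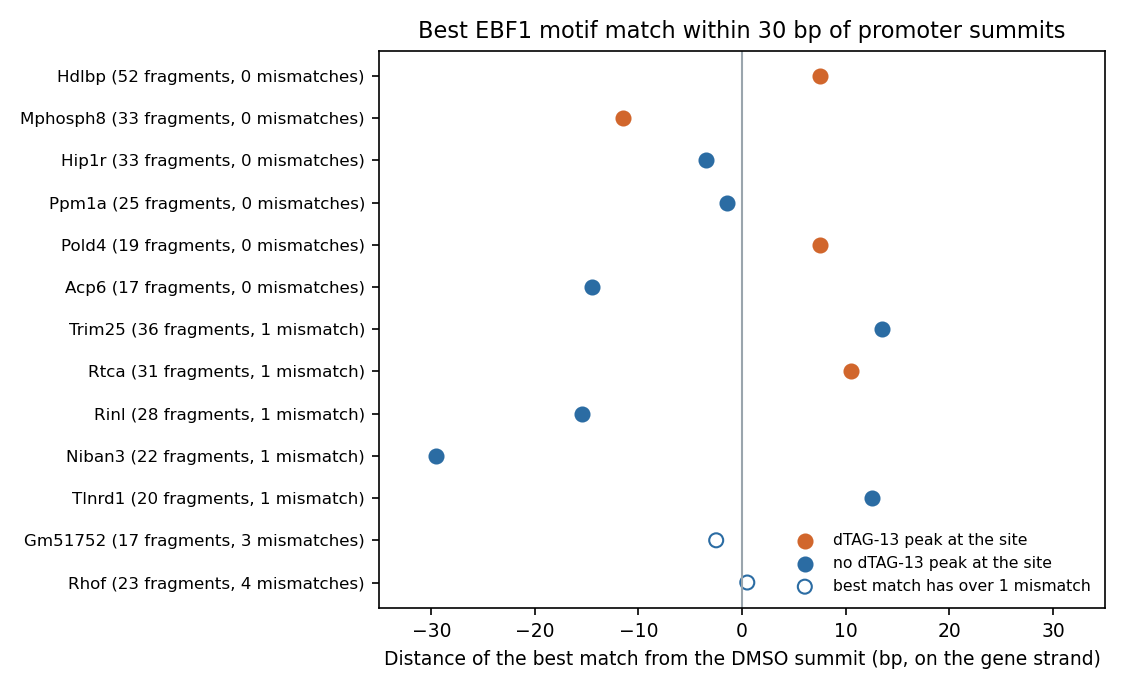
Distance in bp of the best match to the EBF1 palindrome from the DMSO summit, for the 13 summits inside a promoter window, with the window's gene, its fragments and its mismatches at the left. Sites with a dTAG-13 peak (orange) and without one (blue) lie at overlapping distances, and the 2 open circles have 3 and 4 mismatches.

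A pair of longer promoter stretches show how the inner motif lies at a site called in both libraries and at a B-lineage gene called only in DMSO. Each is the 250 bp before the gene start, with every CCCNNGGG in capitals where matches that overlap run together.
Mphosph8, chr14:56667998-56668247, plus strand: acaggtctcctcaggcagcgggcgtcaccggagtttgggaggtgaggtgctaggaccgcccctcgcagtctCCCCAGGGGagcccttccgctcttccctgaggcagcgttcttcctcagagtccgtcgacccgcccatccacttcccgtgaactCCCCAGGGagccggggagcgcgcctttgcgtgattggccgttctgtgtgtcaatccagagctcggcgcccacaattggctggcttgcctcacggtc
Igll1, chr16:16863986-16864235, minus strand: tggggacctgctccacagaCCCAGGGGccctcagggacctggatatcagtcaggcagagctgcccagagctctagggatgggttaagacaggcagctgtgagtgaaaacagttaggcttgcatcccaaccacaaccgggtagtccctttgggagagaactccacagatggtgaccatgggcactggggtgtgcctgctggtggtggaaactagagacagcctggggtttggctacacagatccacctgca

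The Mphosph8 stretch holds 3 matches, of which the last belongs to the exact motif near the summit. The Igll1 stretch holds 1, whose 10-base frame ACCCAGGGGC has 2 mismatches to the motif and is centred 34.5 bp from the summit. The Igll1 peak covers the whole stretch, since it runs from 16863978 to 16864365 on chromosome 16. Its summit, at 16864247, lies outside the stretch, which ends at 16864235. The letters at the summit and in the peak beyond it were therefore not read. A match is a description of letters and not a measured contact.

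The comparison of the libraries asks how much EBF1 binding was still called after dTAG-13. Of the 312 DMSO peaks, 307 had no overlapping peak (98.4%, 96.3 to 99.5%) and 5 had one (1.6%), and all 5 dTAG-13 peaks fell on DMSO peaks. The called length fell from 75240 bp to 1155 bp, and the fragments summed over all called summits from 8929 to 180. Both totals follow the number of peaks called, since sites without a dTAG-13 peak add nothing to the values after dTAG-13. At the 5 shared sites the summed fragments were 181 in DMSO and 180 after dTAG-13. These sites were picked because a peak was called there after dTAG-13, so their heights after it could not be low. The 307 peaks without a partner include the 15 highest of the list and reach down to its last rank.

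Fragments are the number of sequenced DNA pieces stacked over the summit, recovered from the deposited fold enrichment and p. They ran in DMSO from 15 to 90, with a median of 26 and quartiles of 21 and 33, and after dTAG-13 from 25 to 44 with a median of 35. The median of the 307 DMSO peaks without a partner was 26, the same as that of the whole list. The lowest dTAG-13 peak had 25 fragments, and 179 DMSO peaks had at least as many. Of those 179, 4 were called again and 175 were not. The lowest −log10 q after dTAG-13 was 7.57, and 184 DMSO peaks reached it, of which 4 were called again. This q is not like for like, since a −log10 p of 14.2 gave 7.57 after dTAG-13 and 9.01 in DMSO. By −log10 p, 143 DMSO peaks reached the lowest dTAG-13 value of 14.2. The lowest background of each list, a measure of its depth before scaling, was 2.05 fragments per base for the DMSO library and 2.01 for the dTAG-13 library, which gives 0.981 of the depth. The dTAG-13 value is an upper bound, as only 5 peaks inform it. A site without a peak may still hold signal under the calling threshold, and coverage at such sites was not analysed here.

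**Figure D2:**
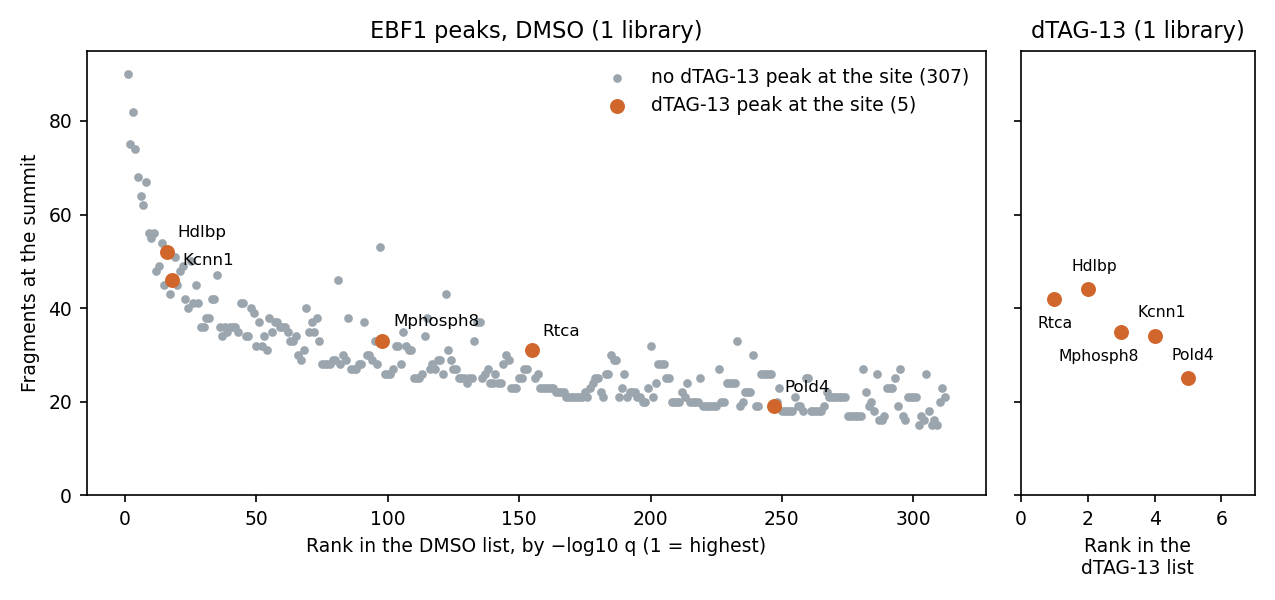
Fragments at the summit against the rank by −log10 q, for the 312 DMSO peaks (left) and the 5 dTAG-13 peaks (right), 1 library each. The 5 DMSO peaks called again (orange) lie between 19 and 52 fragments, and 15 peaks that were not called again rank above the first of them.

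The 5 shared sites name 5 genes, 0.0228% of protein-coding genes. They belong to RNA metabolism, chromatin silencing, DNA replication and ion transport, and none is in the B-lineage lists described below. Hdlbp encodes vigilin, an RNA-binding protein with many KH domains. Its peak had 52 fragments in DMSO (exact Poisson 95% interval 38.8 to 68.2) and 44 after dTAG-13 (32.0 to 59.1), with the summit at the same base. Rtca encodes an RNA 3′-terminal phosphate cyclase. Its peak had 31 fragments (21.1 to 44.0) in DMSO and 42 (30.3 to 56.8) after dTAG-13, while its local background was 4.0 fragments per base in DMSO and 1.65 after dTAG-13 on the scaled counts.

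Mphosph8 encodes a chromodomain subunit of the HUSH complex, which silences transposons. It had 33 fragments (22.7 to 46.3) in DMSO and 35 (24.4 to 48.7) after dTAG-13. Pold4, the small subunit of DNA polymerase delta, had 19 (11.4 to 29.7) and 25 (16.2 to 36.9). Kcnn1, a calcium-activated potassium channel, had 46 (33.7 to 61.4) and 34 (23.5 to 47.5). In each of the 5 pairs the counting intervals overlap, with 2 sites lower and 3 higher after dTAG-13. As ratios, dTAG-13 over DMSO, they were 0.739 at Kcnn1, 0.846 at Hdlbp, 1.06 at Mphosph8, 1.32 at Pold4 and 1.35 at Rtca. The intervals cover counting error only. As the sites were picked by having a dTAG-13 peak, the ratios do not measure how binding changed over the list.

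**Figure D3:**
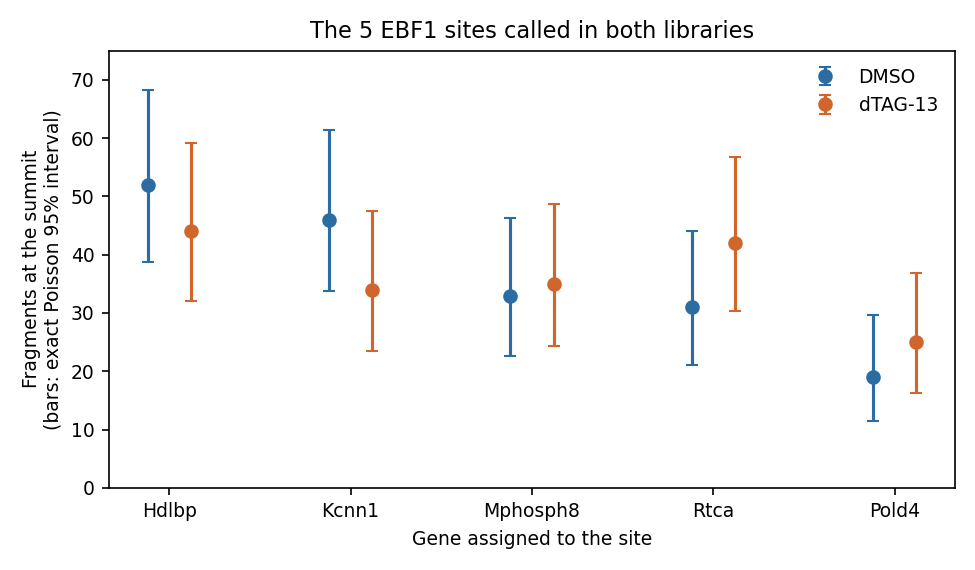
Fragments at the summit of the 5 sites called in both libraries, in DMSO (blue) and after dTAG-13 (orange), with exact Poisson 95% intervals. The intervals of each pair overlap. Sites with low values after dTAG-13 are left out, since a called dTAG-13 peak was required.

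The summits of the shared sites moved by at most 20 bp between libraries, at Kcnn1, and by 0 to 9 bp at the others. In DMSO they lay 12 bp inside the start of Hdlbp, 4 bp inside that of Rtca, 81 bp before that of Mphosph8 and 212 bp before that of Pold4. At Kcnn1 the summit was at -2474 bp from the nearest listed start, that is before it, although a gene bound lay 41 bp from the summit. In the DMSO ranking the 5 were spread from rank 16 (Hdlbp) to rank 247 (Pold4).

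Over the whole DMSO list, binding lay more often near gene starts than their share of the genome. Of the 309 summits on chromosomes for which start sites were used, 42 lay within 1 kb of one (13.6%, 9.97 to 17.9%), while such positions make up 2.2% of the genome. They split into 21 upstream and 21 at or downstream of the start, and 4 of the 42 were called again after dTAG-13. Within 10 kb of a start there were 136 (44.0%, against 18.2% of the genome), and the median distance was 12168 bp. Starts were listed for only 215 of the 278 genes that were assigned a peak. The counts near starts and the genome shares are therefore lower limits, and the median distance is an upper limit. By gene bounds, 47 summits (15.1%) lay within 1 kb of either end of a gene, 126 (40.4%) deeper inside one and 139 (44.6%) between genes. These classes make up 3.01%, 37.9% and 59.0% of the genome. All 5 shared sites were in the first class. Median fragments were 28 at gene ends, 26 inside genes and 26 between genes, and the 3 ranges overlap from 16 to 56. The gene table gives no exons, so exonic and intronic summits were not separated.

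A protein-coding gene was assigned to 299 of the 312 peaks, for 150 by the body that holds the summit and for 149 by the nearest bound within 100 kb (median 12787 bp). The farthest peak assigned lay 99937 bp from its gene, Mib1, and the closest peak left without a gene lay 105825 bp from one. The 299 peaks named 278 genes, which is 1.27% of 21887 protein-coding genes. Counts for gene groups below are read beside this share, and beside the number of peaks that an even spread over the assignable length would give each group. Counts of peaks called again are read beside the whole list, where 307 of 312 (98.4%) had no dTAG-13 peak. Nearest-gene assignment does not show which gene a site acts on.

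The pre-B cell receptor had the highest share of members with a peak among the lists described. Of 9 receptor chain genes 4 had 1 peak each, against 0.0304 for an even spread. Igll1, the lambda5 part of the surrogate light chain, had 45 fragments at rank 20, 262 bp from the gene. Cd79b, the Ig-beta signalling chain, had 30 at 60 bp. Vpreb2, the other part of the surrogate light chain, had 23 at 9761 bp. Vpreb3 had 21 at 182 bp, past the far end of the gene and 1539 bp downstream of its start. None of the 4 was called after dTAG-13, as was so for 98.4% of all DMSO peaks. The 5 other members had no peak in either library. Cd79b and Igll1 had at least the 25 fragments of the lowest dTAG-13 peak, and the Vpreb2 and Vpreb3 peaks had fewer.

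Downstream of the receptor, 5 of 33 signalling genes had 7 peaks, against 0.884. Pik3cd, the catalytic p110-delta subunit of the lymphocyte phosphoinositide 3-kinase, had 30 fragments inside the gene. Bank1, a B-cell scaffold protein, held a pair of peaks inside the gene, 27 and 25 fragments, 1748 bp apart. Inpp5d, the SHIP1 phosphatase that opposes this kinase, also held a pair, with 26 and 17 fragments. Pik3ap1 (BCAP), an adaptor that brings the kinase to the membrane, had 24, and Plcg2, the phospholipase that produces the calcium signal, had 19 at 3238 bp from the gene. Both an activating kinase and its opposing phosphatase were among the genes with a peak.

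Transcription factors of the B lineage had 7 peaks at 7 of 32 genes, against 1.12. Pax5, the commitment factor, had the highest with 35 fragments inside the gene. The Ebf1 gene itself held a peak of 22 fragments in its body. Foxo1, which acts with EBF1 in early B cells, was assigned a peak of 25 fragments 93840 bp away. Erg, an ETS factor, had 24 inside the gene, Zbtb18 had 23, and Id3, an inhibitor of E proteins, and Mef2d had 18 each. No peak of this list was called after dTAG-13, as was so for 98.4% of all DMSO peaks.

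Each of the remaining lists on B cells had at most 1 member with a peak. Cd72, a receptor that dampens B-cell signalling, was the only one of 26 surface molecules (3.85%), with 15 fragments, 1 peak against 0.28. Sh2b3 (LNK), an adaptor that restrains cytokine receptors, was the only one of 21 in interleukin-7, Flt3 and JAK-STAT signalling (4.76%), with 67 fragments at rank 8, 1 peak against 0.219. Of 25 genes of cell cycle and survival Bcl2l1, the anti-apoptotic BCL-XL gene, had 23 fragments, 1 peak against 0.378. No gene of 13 in receptor gene recombination had a peak, against 0.206 for an even spread.

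Taking chains, factors, signalling and surface molecules as 4 lists, 17 of 100 genes (17.0%) had 19 peaks against 2.32 for an even spread. These peaks had 15 to 45 fragments (median 24), and 0 of the 19 were called again. Over the whole DMSO list 5 of 312 (1.6%) were, so this 0 does not set these genes apart. Of the 77 genes in lists of T-cell, myeloid, erythroid and neuronal genes, 1 had a peak (1.3%), against 1.03 for an even spread and 1.27% of all genes. It was Zfpm1 (FOG1), a cofactor of GATA factors, with 27 fragments. Peak lists hold no expression values, and the gene lists were chosen with earlier results of these data known. The contrast therefore describes the chosen genes and does not check the labelled cell type. Gfi1b, with a peak of 25 fragments 96 bp inside its start, is in none of the gene lists and was not counted. The marker genes Cd79a and Vpreb1 had no assigned peak, as was so for the T-cell markers Cd3e, Cd3g and Lck and the myeloid markers Csf1r, Itgam and Mpo.

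**Figure D4:**
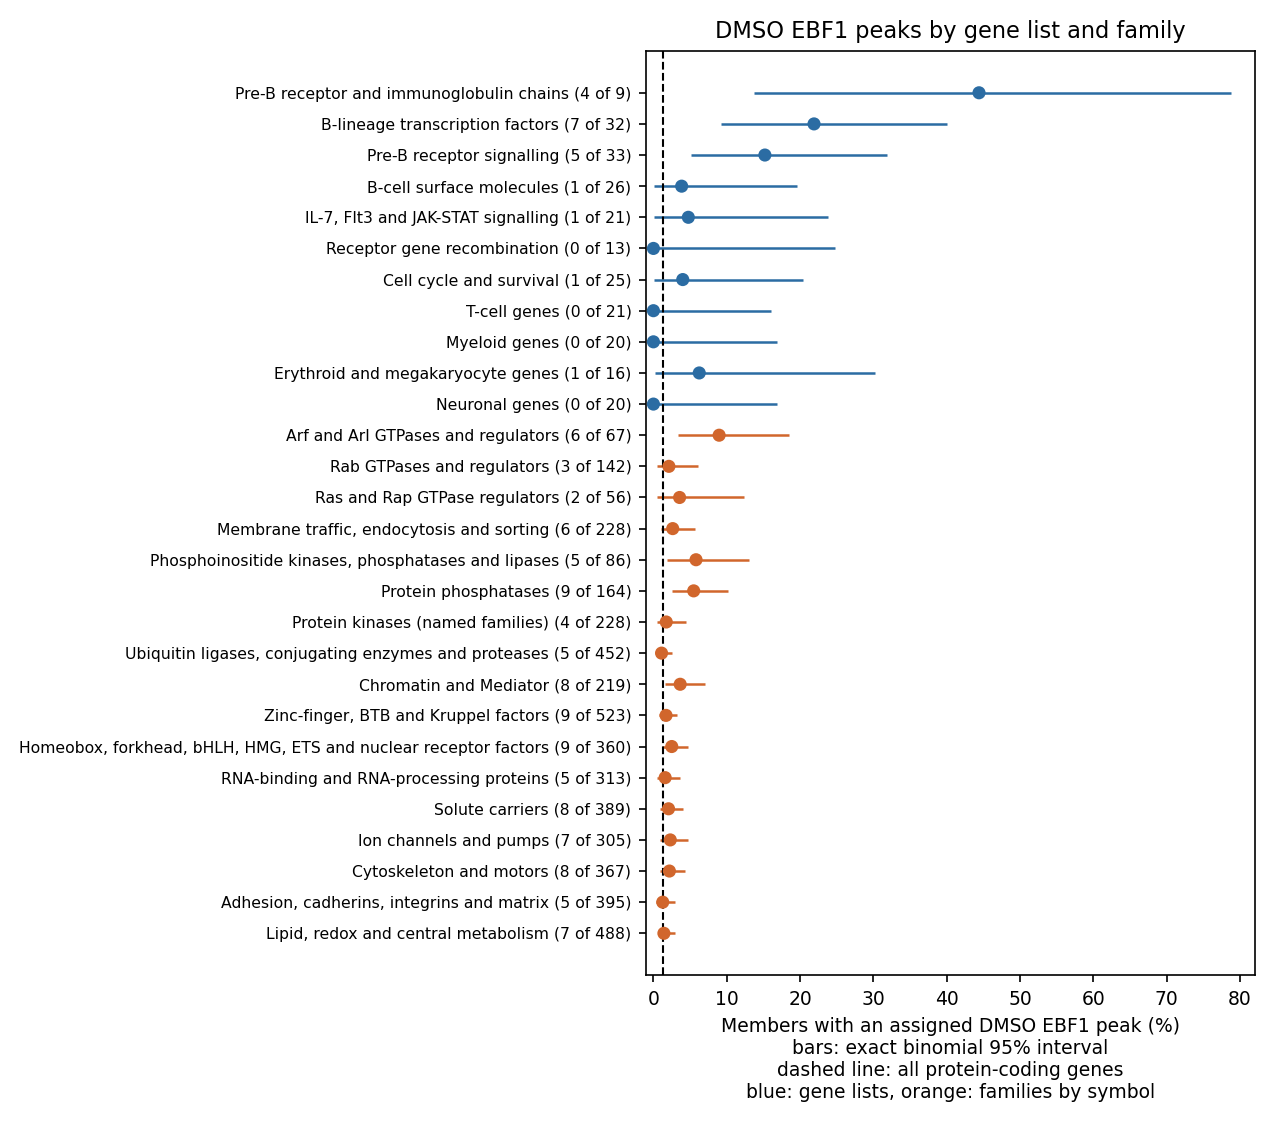
Share of members with an assigned DMSO EBF1 peak for 11 gene lists (blue) and 17 families defined by symbol (orange), with exact binomial 95% intervals that cover counting error only. The dashed line is the 1.27% of all protein-coding genes, and the first 3 lists and the Arf family lie farthest above it.

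The unassigned peaks include 4 in the immunoglobulin kappa locus, whose segments are not counted as protein-coding genes. The highest had 55 fragments at rank 10 and lay 18432 bp from Igkv13-87. The others had 32 fragments at 3540 bp from Igkv3-12-1, 25 at 3014 bp from Igkv8-34 and 22 at 106 bp from Igkv15-101. On chromosome 12 a peak of 22 fragments, assigned to Tedc1, lay 87812 bp from the heavy chain segment Igha. None of the 5 was called after dTAG-13, as was so for 98.4% of all DMSO peaks.

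Beyond the B-cell lists, regulators of Arf GTPases, small switches of membrane traffic and actin, stood highest among the families described. Of 67 genes 6 had a peak (8.96%), with 8 peaks against 1.07 for an even spread. Arap1 and Adap1, which bind phosphoinositides and switch Arf off, had 49 and 48 fragments at ranks 13 and 12. Iqsec1, an activating exchange factor, held a pair of summits 588 bp apart, the closest in the list, with 34 and 28 fragments. The cytohesins, exchange factors for Arf, had peaks at 3 genes: Cyth1 with 34 and 21 fragments, and Cyth3 and Cyth4 with 18 each. The other GTPase families described had lower shares. Dab2ip and Rasa4, which switch Ras off, had 34 and 32 fragments. Of 142 Rab genes, 3 had a peak: Tbc1d16 with 82 and 26 fragments, and Rinl and Rab5a, a regulator of early endosomes, with 28 each.

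Protein phosphatases had peaks at 9 of 164 genes (5.49%), 11 peaks against 3.58. Ppp2r5a, a regulatory subunit of PP2A, was assigned 41 fragments from 61514 bp away, and Ppp1r18 had 37. Ptprs, a receptor tyrosine phosphatase, held 35 and 24 inside the gene. Ppp1cb, a catalytic subunit of PP1, was assigned 30 from 46209 bp away. Dusp2, a nuclear phosphatase of MAP kinases, had a pair of peaks with 25 and 24 fragments. Kinases of the named families had 4 peaks at 4 of 228 genes against 4.53: Mapk10 (JNK3) with 45, Lrrk2 with 29, Cdk17 with 30 and Stk3 (MST2) with 21. The family of phosphoinositide enzymes, which by symbol also takes in the adaptor Pik3ap1, had 6 peaks at 5 of 86 genes against 1.97. Of those genes 4, Pik3cd, Pik3ap1, Inpp5d and Plcg2, are also in the receptor signalling list. The fifth, Pik3c2a, had 18 fragments.

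Chromatin and Mediator genes had 8 peaks at 8 of 219 genes against 3.21. Med13l, a subunit of the Mediator kinase module, had 62 fragments at rank 7 and Bahcc1 had 54, both outside the gene. Kmt2e had 33. The Mphosph8 peak, described above, was the only one of the 8 called again. Factors of the homeobox, forkhead, bHLH, HMG, ETS and nuclear receptor families had 10 peaks at 9 of 360 genes against 6.65. Cux1, a homeodomain factor, had the highest with 75 fragments and another of 37 that lay 4333 bp from it. Pax7 had 24 fragments, and Pax5 and Erg were given above. Zinc-finger genes had 10 peaks at 9 of 523 against 6.69, among them Zfp653 with 46, Zfp462 with 31, Zfp395 with 28 and 25, and Zfp423 with 26, the 4 highest by −log10 q. Zfp423 is itself known to bind EBF proteins.

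Further families had somewhat more peaks than an even spread. Genes of membrane traffic had 6 peaks against 3.65. They were at Sh3gl3 (64 fragments, 64424 bp from the gene), the sorting nexins Snx5 (38), Snx20 (22) and Snx8 (18), the SNARE Stx1a (23) and Vps13d (21). Solute carriers had 8 against 5.72, led by the mitochondrial carrier Slc25a26 with 68 fragments, Slc30a7, a zinc transporter of the Golgi, with 40, and Slc12a9 and Slc17a9 with 28 and 33. RNA-binding genes had 6 against 4.18, of which the peaks at Hdlbp and Rtca were called again, and those at Msi2 (36 and 22) and Hnrnpl (25) were not. Metabolic genes had 8 against 4.87, among them Car2, a carbonic anhydrase, with 36 fragments, Scd1, the stearoyl-CoA desaturase, with 37 and 29, Txnrd3 with 37 and Acoxl with 25. The cytoskeleton family had 9 against 5.54, led by Myl10 with 74 (47423 bp away) and 18 (15146 bp away), Actb (beta-actin) with 56 and Myh10, a non-muscle myosin, with 40. As families were defined by symbol, these 9 include the peaks of the calpain proteases Capn13 (39) and Capn11 (31).

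Some families had fewer peaks than an even spread. Adhesion and matrix genes had 6 against 11.9, at Col26a1 (43 and 51 fragments), Itgal (20), Adamtsl2 (17), Slit1 (20) and Plxnb1 (26). Itgal encodes the alpha chain of the leukocyte integrin LFA-1. Ion channels had 7 against 8.24, of which Kcnn1 alone was called again, with Kcnk3 at 41 fragments and Cacna1e at 25. Genes of the ubiquitin system had 5 against 6.06, at Mib1 (90 fragments), Usp24 (42), Asb2 (47), Trim25 (36) and Fbxl17 (26). The Mib1, Usp24 and Fbxl17 peaks lay 99937, 95096 and 37490 bp from these genes. With a limit of 20 kb, 2 genes of this family had a peak. In all, 115 of the 278 genes belong to a list or family and 163 to none.

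From those 163 and the lists, further groups were put together after the genes had been seen, and they describe the list with no background of their own. Genes of DNA replication and repair numbered 9, with 19 to 42 fragments (median 21). They were Parp1 (42), which marks broken DNA, the replisome protein Wdhd1 (36), Fance (29) and Faap20 (19) of the Fanconi anaemia pathway, Sde2 (26), Topbp1 (21), Rmi1 (20), Xrcc1 (19) and Pold4. Of these the Pold4 site was the only one called again. Signalling adaptors and scaffolds numbered 11 with 12 peaks, among them Rftn1 (raftlin, 37), Gab1 (35), Cmip (29), Lax1 (20) and Traf3 (24), a brake on B-cell survival signals. Immune receptors and regulators numbered 9, led by Lrrc32 (48), which presents latent TGF-beta, and Nlrp12 (36), with Ciita (30), the activator of MHC class II genes. Other transcription and chromatin genes numbered 14, among them Hivep2 (35), Satb1 (32, from 70940 bp away), a chromatin organiser of lymphocytes, Btg2 (29), Ell2 (27) and Gfi1b (25). Glycan genes numbered 6 with 18 to 43 fragments, and Mib1 and Notch3 (27) are both of the Notch pathway. Apart from Pold4, no peak of these groups was called again, which is near the 1.6% called again over the whole list.

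The 30 peaks ranked 16 to 45 had 34 to 52 fragments, with 4 at gene ends, 12 inside genes and 14 between genes. Most of their genes are named above. Others were Lemd2 (50 fragments), an inner nuclear membrane protein, Fgd2 (49), Ccm2 (42), a scaffold of blood vessel junctions, Tmem64 (41), Pet117 (38), an assembly factor of cytochrome oxidase, Prodh2 (36) and Ttll11 (34). Hand1, a bHLH factor of heart development, had 36 fragments from a summit 36813 bp away. A peak of 41 fragments on chromosome 15 had no protein-coding gene within 100 kb. Hdlbp and Kcnn1 are the only sites among these 30 that were called again.

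A pair of peaks fell to each of 21 genes, and no gene had more. Besides those named, they include Abcg1, a cholesterol exporter (40 and 26 fragments), Hand1 (36 and 33), Enpp6 (28 and 21), Tex44 (29 and 16), Tha1 (25 and 22), Wdfy3 (22 and 19) and Wdr66 (21 and 20). The summits of a pair lay 588 bp (Iqsec1) to 75534 bp (Myl10) apart. The pairs of Cux1, Myl10 and Col26a1 lie on 1 stretch of chromosome 5, with summits from 136585457 to 136754274. The counts of the homeobox, cytoskeleton and adhesion families and of chromosome 5 all include this stretch. Of all 312 summits, 22 (7.05%) lay within 10 kb of another and 57 (18.3%) within 100 kb. No site of these pairs was called after dTAG-13, as was so for 98.4% of all DMSO peaks.

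Peaks were unevenly spread over the chromosomes. Chromosome 5 held 40 (12.8%) where its length is 5.83% of the genome, chromosome 17 held 25 (8.01%, length 3.65%) and chromosome 11 held 27 (8.65%, length 4.69%). Chromosome 13 held 4 (1.28%, length 4.49%). The X chromosome held 0 of 312, which allows a share of up to 0.962% by the limit of 3 counts and 1.18% by the exact 95% interval, while it makes up 6.56% of the length and an even spread would give 20.5. In the Brg1 lists, from the line EBF1-dTAG_N, the X share was 0.427% (1 of 234) in DMSO and 0.538% (28 of 5206) after dTAG-13. The 5 shared sites were on chromosomes 1, 3, 8, 14 and 19. Copy number and mappability were not analysed here.

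**Figure D5:**
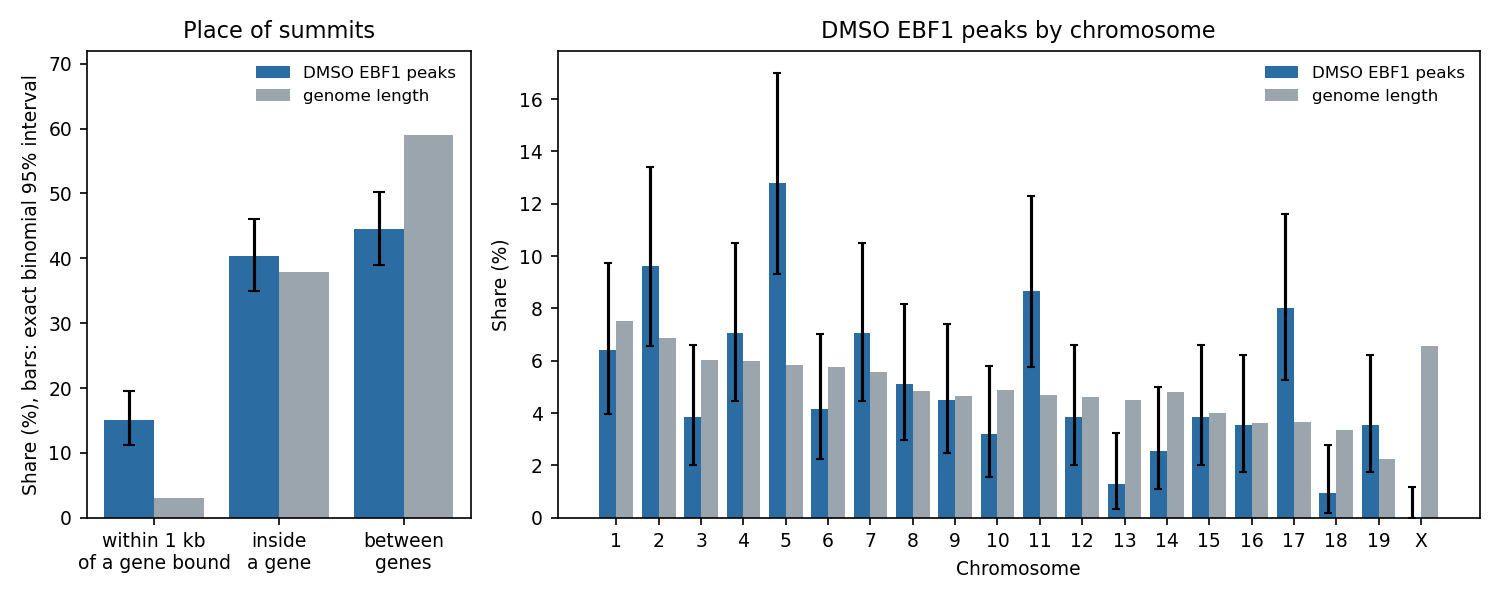
Share of the 312 DMSO EBF1 summits by place (left) and by chromosome (right), in blue with exact binomial 95% intervals, beside the share of genome length in grey. Gene ends hold 15.1% of summits on 3.01% of the length, and X holds none.

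In the line EBF1-dTAG_N, where Brg1 was mapped, 44 of the 312 EBF1 sites (14.1%, 10.4 to 18.5%) overlapped a Brg1 peak in DMSO and 56 (17.9%, 13.9 to 22.7%) after dTAG-13, and 0 of the 5 shared sites overlapped either. These Brg1 lists hold 234 and 5206 peaks, and the order of the 2 counts turned under both alternatives, to 40 and 24 with a reciprocal overlap of 50% and to 35 and 29 for Brg1 peaks that reach a −log10 q of 5. The Igll1 site overlapped a Brg1 peak in both, and the antibody, fixation, depth and line differ from those of the EBF1 libraries.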

How the data were processed

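ChIP-seq peak lists of EBF1 (1 library in DMSO, 1 after dTAG-13) and, for overlaps, of Brg1 were used. The 4 inputs were not analysed here. Per the submitters' processing notes, MACS2 2.2.7.1, Bowtie2 2.3.5.1, deepTools 3.3.2 and SAMtools 1.10 were used, with GRCm38 and mm10 as builds. Their settings were not given in the sources used. The deposited lists give the authors' score, their fold enrichment (a linear ratio over background), their −log10 p and q, and the distance of the summit from the peak start. These are the authors' values per peak. They were used within each list to rank by −log10 q and to filter. The lowest −log10 q and p of the dTAG-13 list were also set as thresholds on the DMSO list. Peaks were called per library.

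Summit fragments and backgrounds were recovered from the fold (pseudocount 1) and the Poisson p, with the immunoprecipitation scaled by 0.863 (DMSO) or 0.818 (dTAG-13). They were whole within 0.02 for 100% of peaks. Scripts were tested on simulated data. Peaks matched at an overlap of 1 bp. Genes were assigned as described, taking the shortest gene where bodies overlap. Shares carry exact Clopper-Pearson 95% intervals that cover counting error only. The genes named are list members with a peak, genes of dTAG-13 peaks, genes with 2 peaks, the 4 highest of each family and ranks 16 to 45, with others added after their values were seen; a few that the rule names are not reported here. Members and lists were chosen with earlier results of these data known. The motif search planned for all summits was limited to promoter windows, which 215 of the 278 genes have. Alternatives tried were other overlaps, distances, assignments, q thresholds and motif forms.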

Additional observations from a re-analysis of the deposited data

How the results depend on the processing

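Of 38 alternatives to the main results, 26 stayed close to the main value (within 1.5 times for counts and ratios, within the 95% interval for shares) and 12 moved. With a −log10 q of at least 10, DMSO peaks numbered 126, their ratio to dTAG-13 peaks was 31.5, the genes with a peak were 116 and the members of the 4 B-lineage lists with one were 5. With at least the lowest −log10 q of the dTAG-13 list, peaks were 184 and the ratio 36.8, though this q stands at a different p in each list. The number of DMSO peaks found again was 5 under a reciprocal overlap of 50%, for summits within 250 bp and for peaks within 1 kb. Summits within 2 kb of a gene bound were 21.8%. Taking all genes within 100 kb gave 1212 genes. Motif shares were 76.9% for CCCNNGGG and 84.6% with up to 1 mismatch, the latter chosen after seeing the data. EBF1 sites with a Brg1 peak, 44 in DMSO and 56 after dTAG-13, became 40 and 24 under a reciprocal overlap of 50%, and 35 and 29 where Brg1 had to reach a −log10 q of 5, so their order turned. Under the nearest bound, 293 of 312 peaks kept their gene, and 28 of the 29 list and family counts stayed within 1.5 times. The same held for 28 of 29 within 20 kb and for 12 of 29 at a −log10 q of at least 10. No paired analysis was possible because each group has 1 library. The median summit rests on 26 fragments, which limits the precision of every single height.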
